A study of Mus musculus with 4 samples.

Results

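The 10 core genes of the Polycomb repressive complexes, Ezh1, Ezh2, Eed, Suz12, Jarid2, Bmi1, Ring1, Rnf2, Cbx7 and Cbx8, were examined in a list of genomic regions where acetylation of histone H3 at lysine 9 (H3K9ac) was called different between 2 choline levels. The genes were chosen by name for their role in these complexes, and a region was counted for a gene when it overlapped the gene's annotated span plus 5 kb on both sides by at least 1 bp. This rule took 34 of the 45855 regions in the list (0.0741%). The cells were HT22, an immortalised mouse hippocampal line (the labels' source name reads TH22), held for 48 h in medium with choline chloride at 5 µM as the control or at 70 µM as the supplemented condition. All groups shared the same high-glucose medium with serum, and the series consists of 2 input DNA and 2 H3K9ac ChIP libraries. The labels do not tie a library to a choline level, so each level rests on at most 1 ChIP library, with no replicate and no test of a difference. The file holds no value per library. Each region carries only the condition it was assigned to and a score that the authors' comparison gave it. That column has no name, and nothing in the file says whether it holds the log10 likelihood ratio that MACS2 bdgdiff writes. In it 2552 regions share the exact score 19.01 in the authors' deposited table. Regions shared by both conditions are not listed, so the list cannot show whether neuronal markers were active. The region names give the numbers 5 and 70 in that order, so condition 1 was taken to be 5 µM and condition 2 to be 70 µM, and each direction below depends on this.

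Polycomb proteins keep developmental genes silent. Polycomb repressive complex 2 (PRC2) methylates histone H3 at lysine 27 through EZH1 or EZH2, held together by SUZ12 and EED, and JARID2 helps bring the complex to its targets. Polycomb repressive complex 1 (PRC1) attaches ubiquitin to histone H2A through RING1 or RNF2 (RING1A and RING1B), which pair with a PCGF protein such as BMI1, while CBX7 and CBX8 carry the chromodomain that reads the methyl mark of PRC2. H3K9ac marks active promoters and enhancers, and the regions described here lie at the genes that encode the repressors, not at the sites the repressors bind.

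Every core gene carried differential H3K9ac, and all of it was assigned to supplemented choline. All 10 genes had at least 1 region called at 70 µM within the span plus 5 kb (exact Clopper-Pearson 95% interval 69.2 to 100% of genes, covering counting only), where 60.7% of all 21938 protein-coding genes had one. The count depended on low-scoring regions. Limited to regions at or above the list's median score, 5 of the 10 core genes had one, against 43.9% of protein-coding genes, and in the top 25% by score 3 of 10 did, against 27.3% (regions at either choline level), so by these limits the core genes stood near the share of all genes. The share of genes with a region grew with window length, from 42.2% of genes with windows under 20 kb through 68.2% at 20 to under 100 kb to 81.4% at 100 kb or more. Of the core genes, 3, 6 and 1 fell in these classes, and the median window was 48.2 kb against 27.4 kb for all protein-coding genes. The number per gene ran from 1 at Eed to 5 at Ezh1, Bmi1 and Ring1, with a median of 3 against 1 over all protein-coding genes. In 8 of 10 core genes there were 3 or more regions called at 70 µM, which held for 29.7% of protein-coding genes. No region at a core gene was called at 5 µM. At 5 µM 1.75% of protein-coding genes had a region and 0.785% of the list was assigned there. By the approximate 95% limit of 3 counts for a count of 0, 0 of 34 regions allows a share of up to 8.82%. That limit treats regions of the same gene as independent, and the absence carries little information. Per length, the core genes held 0.59 regions per 10 kb of window, the summed windows of all protein-coding genes 0.34 and the genome 0.168. The median per gene was 0.58 at core genes, 0.24 over all protein-coding genes and 0.65 over those with a region. As every core gene had a region, they were not dense beside the latter genes.

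**Figure D1:**
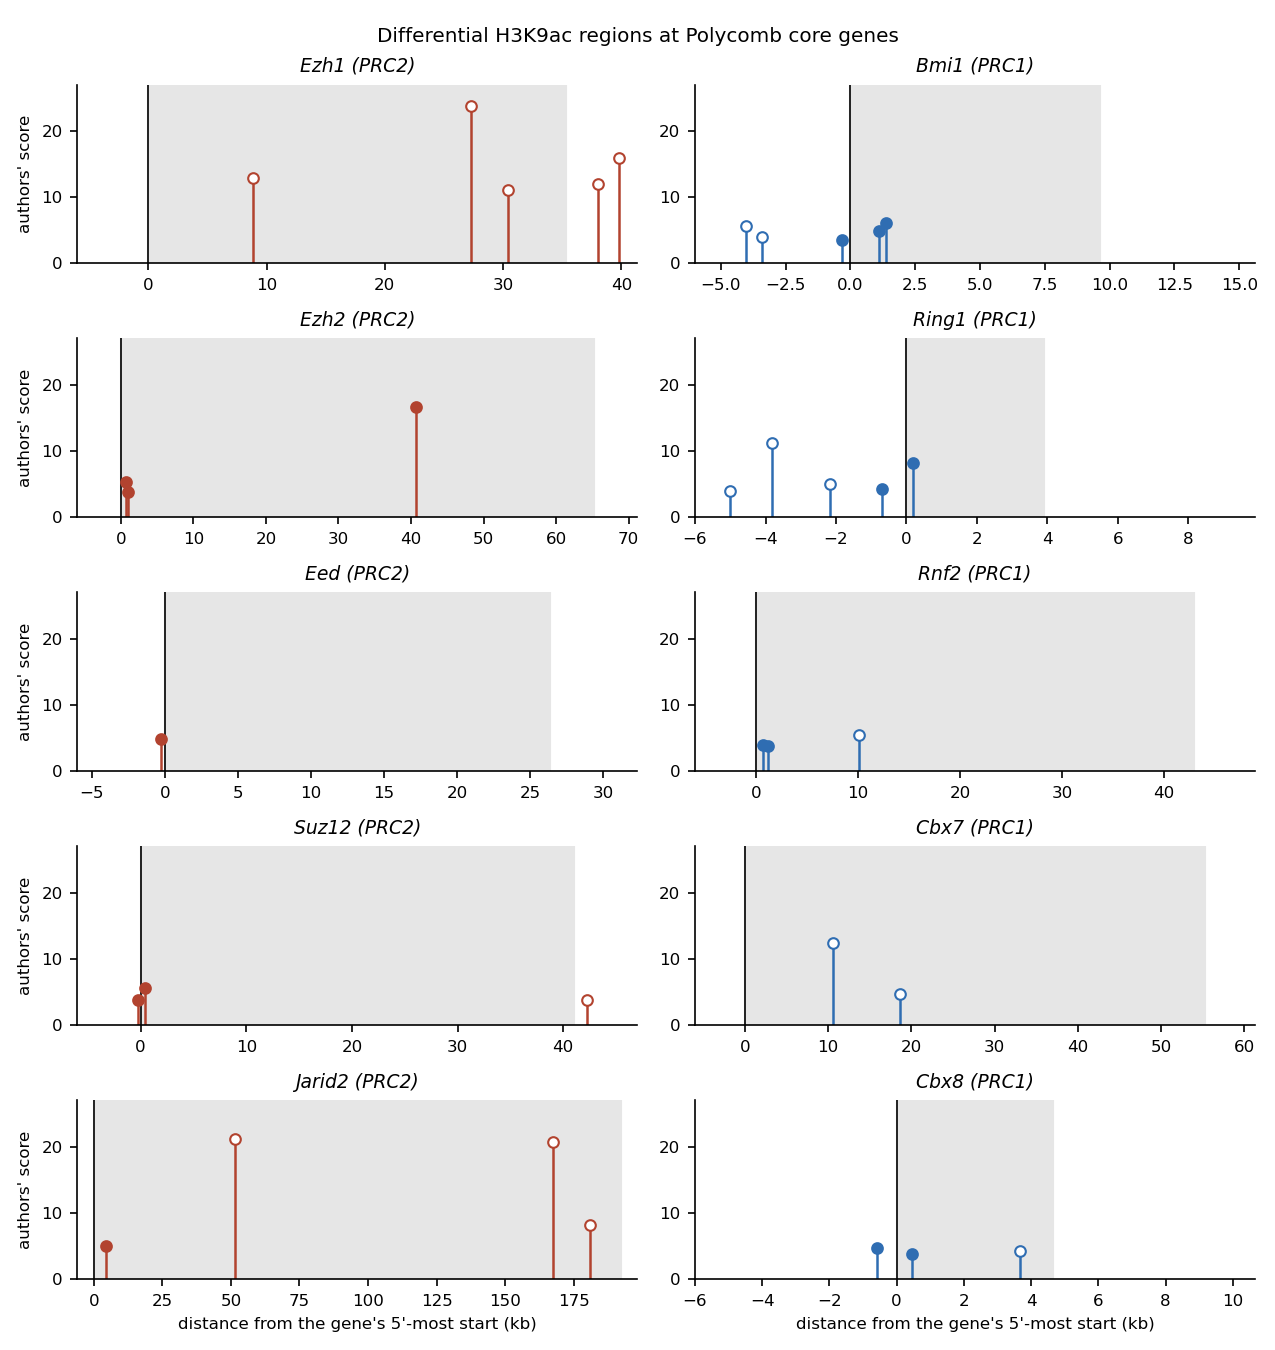
Each panel shows a core gene, with PRC2 on the left and PRC1 on the right. The horizontal axis is the distance in kb from the 5′-most annotated start (black line), the grey band is the gene span, and each stem is a region at 70 µM whose height is the authors' score. Filled heads lie within 1 kb of an annotated start of the gene. Low filled stems stand at the starts of 7 genes, while Ezh1 and Cbx7 have none, and the tallest stems are inside or downstream of Ezh1 and deep in Jarid2 and Ezh2.

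The regions differed widely in sequence. Many flanked a start in CpG-rich DNA, and the following examples are the highest-scoring start-site regions of their genes, printed from the plus strand of GRCm38.p6 (the same build as mm10) with each CpG in capitals.
Eed chr7:89981162-89981339: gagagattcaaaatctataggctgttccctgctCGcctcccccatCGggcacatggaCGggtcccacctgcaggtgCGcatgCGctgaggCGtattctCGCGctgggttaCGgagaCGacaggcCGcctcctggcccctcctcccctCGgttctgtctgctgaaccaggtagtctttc
Suz12 chr11:79993427-79993694: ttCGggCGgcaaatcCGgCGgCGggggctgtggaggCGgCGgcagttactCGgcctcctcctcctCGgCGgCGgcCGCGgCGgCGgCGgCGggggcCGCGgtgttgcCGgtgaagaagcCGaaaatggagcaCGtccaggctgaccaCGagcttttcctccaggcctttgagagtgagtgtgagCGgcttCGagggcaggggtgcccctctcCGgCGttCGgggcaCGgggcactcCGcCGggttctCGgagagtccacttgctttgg
Jarid2 chr13:44733778-44733977: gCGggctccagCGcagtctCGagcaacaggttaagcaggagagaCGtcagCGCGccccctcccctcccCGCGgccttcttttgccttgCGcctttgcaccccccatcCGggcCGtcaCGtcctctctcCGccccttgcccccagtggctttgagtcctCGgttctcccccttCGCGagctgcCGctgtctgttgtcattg
Rnf2 chr1:151500190-151500464: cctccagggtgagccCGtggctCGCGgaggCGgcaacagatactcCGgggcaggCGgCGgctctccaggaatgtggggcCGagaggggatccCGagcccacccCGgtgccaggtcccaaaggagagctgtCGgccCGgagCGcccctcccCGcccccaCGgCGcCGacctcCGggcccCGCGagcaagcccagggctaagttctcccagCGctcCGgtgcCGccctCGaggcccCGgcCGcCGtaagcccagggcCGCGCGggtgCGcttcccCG
Cbx8 chr11:119041410-119041674: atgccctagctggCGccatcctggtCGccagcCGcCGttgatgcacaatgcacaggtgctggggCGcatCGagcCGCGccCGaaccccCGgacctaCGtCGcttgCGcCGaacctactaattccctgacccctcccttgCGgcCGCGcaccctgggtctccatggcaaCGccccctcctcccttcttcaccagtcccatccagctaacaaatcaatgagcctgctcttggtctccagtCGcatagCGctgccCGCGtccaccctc
The Bmi1 region just before the first start was added after its values were seen, because it was the most CpG-dense of all 34, with 27 CpG sites in 144 bp and 84.0% G and C.
Bmi1 chr2:18676606-18676749: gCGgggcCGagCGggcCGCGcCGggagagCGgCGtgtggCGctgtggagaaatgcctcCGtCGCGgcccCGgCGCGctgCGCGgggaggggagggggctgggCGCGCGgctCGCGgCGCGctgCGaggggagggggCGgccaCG
Others lay inside genes in DNA with fewer CpG sites. These are the highest-scoring start-site region of Ezh2, which sits in an intron by an internal start, that of Bmi1 in intron 1, the highest-scoring Cbx7 region, and 2 added after their values were seen, from introns of Ezh1 and Jarid2.
Ezh2 chr6:47554632-47554794: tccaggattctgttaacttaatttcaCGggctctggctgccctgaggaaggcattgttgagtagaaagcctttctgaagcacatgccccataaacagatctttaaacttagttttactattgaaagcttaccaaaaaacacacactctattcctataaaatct
Bmi1 chr2:18678299-18678489: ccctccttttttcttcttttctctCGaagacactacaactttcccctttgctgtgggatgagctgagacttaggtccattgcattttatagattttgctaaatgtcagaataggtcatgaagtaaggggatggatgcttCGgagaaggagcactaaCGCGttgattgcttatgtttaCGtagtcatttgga
Cbx7 chr15:79960477-79960601: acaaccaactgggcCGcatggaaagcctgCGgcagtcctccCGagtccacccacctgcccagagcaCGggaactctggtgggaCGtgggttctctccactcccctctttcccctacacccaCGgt
Ezh1 chr11:101217568-101217719: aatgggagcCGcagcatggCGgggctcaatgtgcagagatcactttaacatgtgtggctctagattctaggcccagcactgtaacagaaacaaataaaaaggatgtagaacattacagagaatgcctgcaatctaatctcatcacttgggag
Jarid2 chr13:44781026-44781173: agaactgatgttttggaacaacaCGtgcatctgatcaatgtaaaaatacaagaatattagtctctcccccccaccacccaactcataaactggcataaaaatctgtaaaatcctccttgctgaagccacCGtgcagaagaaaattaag
The capitals show the contrast: the 268-bp Suz12 region holds 32 CpG sites, the 163-bp Ezh2 intron region 1 and the 148-bp Jarid2 intron region 2. The highest-scoring regions of Ezh1 and Ring1 contain annotated untranslated bases and are not printed.

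Ezh1, the PRC2 catalytic subunit that predominates in non-dividing cells, carried 5 regions and none within 1 kb of an annotated start. The gene (ENSMUSG00000006920.14) lies at chr11:101191115-101226463 on the minus strand. A region at chr11:101199074-101199276, in the intron after exon 15 of transcript Ezh1-203, had the highest score of any core gene, 23.82 in the authors' deposited table, above 98.2% of the list. A neighbouring region in the same intron, chr11:101195915-101196101, scored 11.04 in the authors' deposited table, and chr11:101217568-101217719 in the intron after exon 2 scored 12.89 there. The remaining pair lay downstream of Ezh1 inside Cntnap1, which encodes an axonal adhesion protein of the paranodal junction. Of these, chr11:101186549-101186733 was in a coding exon of Cntnap1 at 15.87 in the authors' deposited table, and chr11:101188333-101188552 in an intron of it with 11.93. All 5 thus scored above the list's median of 6.64 in the authors' deposited table, and without the 5-kb flanks Ezh1 kept 3 regions.

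Ezh2, the catalytic subunit prominent in dividing cells, had regions at its start and far inside (ENSMUSG00000029687.16, chr6:47530139-47595341, minus strand). A pair in intron 1, at chr6:47594559-47594806 and chr6:47594235-47594497, was centred 659 and 975 bp downstream of the first start. Their scores were 5.31 and 3.85 in the authors' deposited table, and they were 72.2% and 68.4% G and C. The third region, chr6:47554632-47554794, lay 40628 bp into the gene in the intron after exon 5 of Ezh2-201 and scored 16.70 in the authors' deposited table. It counts as a start-site region only because a short Ezh2 transcript, annotated as a target of nonsense-mediated decay, begins 499 bp from its centre.

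Eed and Suz12, the subunits that bind the methyl mark and hold the complex together, carried regions at their starts only, apart from 1 downstream of Suz12. The sole Eed region (ENSMUSG00000030619.9, chr7:89954654-89980983, minus strand) was chr7:89981162-89981339, centred 267 bp upstream of the start, and the authors' deposited table gives it a score of 4.85. It also overlaps the noncoding gene E230029C05Rik, so the 2 genes cannot be told apart here. At Suz12 (ENSMUSG00000017548.15, chr11:79993106-80034123, plus strand) regions stood on either side of the start. The one upstream, chr11:79992809-79992990, was centred 207 bp before the start and the one downstream, chr11:79993427-79993694, 454 bp after it over the coding part of exon 1. Their scores were 3.8 and 5.66 in the authors' deposited table. The third Suz12 region, chr11:80035344-80035464, lay beyond the 3′ end and scored 3.81 in the authors' deposited table.

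Jarid2, the accessory subunit, is the longest core gene (ENSMUSG00000038518.15, chr13:44729474-44921643, plus strand) and had 4 regions, or 0.20 per 10 kb, the lowest density of the 10. Its only start-site region, chr13:44733778-44733977, lay 4403 bp after the first start and 163 bp before that of the noncoding transcript Jarid2-202, and scored 5.02 in the authors' deposited table. Deep in the gene, chr13:44781026-44781173 in intron 1 scored 21.12 and chr13:44896655-44896784 in the intron after exon 6 scored 20.62 in the authors' deposited table, above 93.8% and 92.8% of the list. The latter holds no CpG at all. The last region, chr13:44910397-44910548 in the intron after exon 10, scored 8.2 in the authors' deposited table. The nearest protein-coding start to these last 2 regions was that of Dtnbp1, 50425 and 36672 bp away.

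Bmi1, the PCGF partner of the ubiquitin ligase, had 5 regions in a 19.6-kb window, 2 of them inside the gene itself (ENSMUSG00000026739.13, chr2:18677018-18686629, plus strand). Of these, 3 flanked its own starts: chr2:18676606-18676749, centred 341 bp upstream of the first start, and chr2:18678032-18678184 and chr2:18678299-18678489 in intron 1, 1090 and 1376 bp downstream of it. Their scores were 3.48, 4.82 and 6.06 in the authors' deposited table, and only 2.2% of the list scored lower than the first. The intron 1 regions were 45.1% and 41.9% G and C, against 84.0% for the upstream one. The other 2 Bmi1 regions, chr2:18672892-18673094 and chr2:18673517-18673653, lay inside the neighbouring gene Commd3, 470 and 73 bp from annotated Commd3 starts, with scores of 5.61 and 4.01 in the authors' deposited table.

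Ring1 and Rnf2 encode the alternative ubiquitin ligases. Ring1 (ENSMUSG00000024325.8, chr17:34020792-34024680, minus strand) is the most compact of the 10, and its 5 regions gave 3.60 per 10 kb, and 98.6% of protein-coding genes had a lower density. This count rested on the flanks: 1 region overlapped the gene itself, and 2 were left with flanks of 2 kb. Its own start had chr17:34024343-34024671, the widest region at any core gene (329 bp), which scored 8.12 in the authors' deposited table, and chr17:34025283-34025476, centred 699 bp upstream, with 4.30. The other 3 regions lay further upstream over H2-Ke6, a hydroxysteroid dehydrogenase gene, and the zinc transporter gene Slc39a7. Of these, chr17:34028417-34028591 in a 3′ untranslated exon of Slc39a7 scored 11.21, chr17:34026753-34026953 in a coding exon of H2-Ke6 4.99 and chr17:34029613-34029756 in a coding exon of Slc39a7 4.01 in the authors' deposited table. At Rnf2 (ENSMUSG00000026484.13, chr1:151458004-151500955, minus strand) all 3 regions were in intron 1. Those at chr1:151500190-151500464 and chr1:151499713-151499881 were centred 628 and 1158 bp after the first start and chr1:151490791-151490913 lay 10103 bp into the gene. Their scores were 3.92, 3.86 and 5.47 in the authors' deposited table, so Rnf2 had no region above the list's median.

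The chromodomain genes differed in where their regions lay. Cbx7 (ENSMUSG00000053411.16, chr15:79915807-79971119, minus strand) had 2 regions and none within 1 kb of a start. Both, chr15:79960477-79960601 and chr15:79952431-79952579, lay upstream of the principal transcript Cbx7-201 and inside longer annotated transcripts, and scored 12.40 and 4.73 in the authors' deposited table. Of the 94 32-base words of the first, 3 occurred elsewhere in the genome, whereas the other 33 regions at core genes had no such word. Cbx8 (ENSMUSG00000025578.9, chr11:119036305-119040969, minus strand) had regions on both sides of its start, chr11:119041410-119041674 centred 573 bp upstream and chr11:119040414-119040594 centred 465 bp downstream in intron 1. Another, chr11:119037199-119037384, fell in the 3′ untranslated part of exon 5, 71.0% G and C with 23 CpG sites. The 3 Cbx8 scores were 4.72, 3.84 and 4.23 in the authors' deposited table.

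Set side by side, the complexes had similar numbers of regions but not similar scores. PRC2 genes held 16 regions and PRC1 genes 18, with 7 and 9 of them within 1 kb of a start of the gene. The PRC2 median score was 9.62 and the PRC1 median 4.73 in the authors' deposited table, and 8 of 16 PRC2 regions but 2 of 18 PRC1 regions scored 10 or more. This gap rested on Ezh1, which had 5 of the 8. Without Ezh1 the other PRC2 genes had a median of 5.31 over 11 regions in the authors' deposited table. The density was 1.08 regions per 10 kb at PRC1 genes and 0.39 at PRC2 genes, and without the long gene Jarid2 the latter was 0.58. The PRC1 value rested on genes with windows under 20 kb, Ring1 at 3.60, Bmi1 at 2.55 and Cbx8 at 2.05. Rnf2 had 0.57 and Cbx7 0.31. All regions of Bmi1 and Ring1 also counted for another protein-coding gene. No test was made.

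Start-site regions were present at 8 of the 10 core genes (80.0%, exact Clopper-Pearson 95% interval 44.4 to 97.5%), where 39.2% of protein-coding genes had a region called at 70 µM within 1 kb of an annotated start. Ezh1 and Cbx7 were without. With the 5′-most start of each gene alone, Jarid2 was lost as well and 7 genes were left, where 32.5% of protein-coding genes had a region at either level. Limited to regions at or above the list's median score, 2 core genes, Ezh2 and Ring1, had a start-site region, against 14.6% of protein-coding genes. Around the 5′-most starts, in 7 genes there were 14 regions centred within 1500 bp, 9 downstream and 5 upstream. None of the 14 covered the first base. Over all protein-coding genes 7.71% of 12093 such region and gene pairs covered it, so with 14 regions a count of 0 is near that share and says nothing particular of the core genes. The closest region, at Ring1, was centred 173 bp from the first base and ended 9 bp from it. Another annotated start of the gene, that of transcript Ring1-202, lies inside this region. Over all protein-coding genes the share with a region in a 100-bp bin showed no gap across the start. It was 5.56%, 5.51% and 5.55% in the bins that begin 400, 300 and 200 bp upstream. From there it rose to 6.01% in the last bin before the start and 7.05% in the first bin after it. It reached 10.1% in the bin that begins 400 bp downstream.

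**Figure D2:**
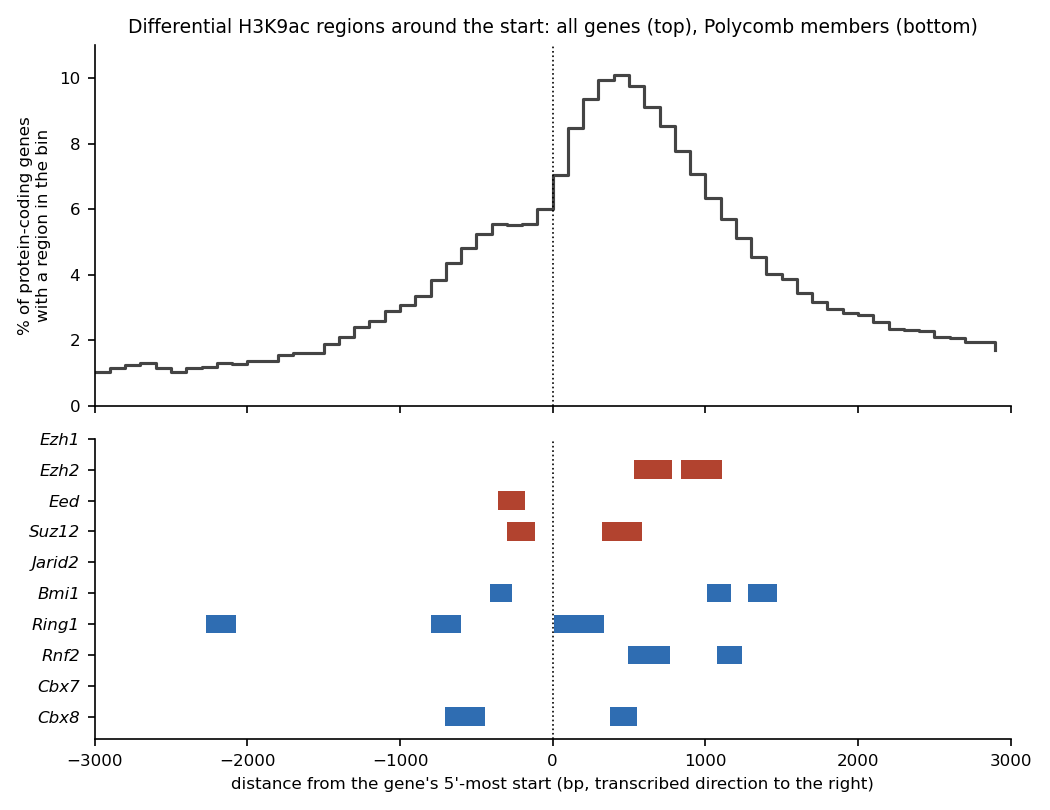
Top: percent of all protein-coding genes with a region in each 100-bp bin within 3 kb of the 5′-most start, transcribed direction to the right. Bottom: the regions of each core gene on the same axis, PRC2 in red and PRC1 in blue. The curve peaks at 10.1% downstream of the start, and no bar of a core gene crosses the dotted line, the nearest, at Ring1, ending 9 bp from it.

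Promoters of the core genes were rich in CpG sites. All 10 genes matched the RefSeq promoter table (GRCm38.p6, 250 bases before to 50 after a start). Their promoters held 17 to 41 CpG sites with a median of 24, against a median of 14 over the 20150 entries of protein-coding genes. A region overlapped this narrow promoter in 3 core genes, Eed, Suz12 and Ring1, and in 10.5% of all entries. The former is a count of genes and the latter a share of entries, and the 20150 entries belong to 16522 genes.

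Scores were lower at starts, by an amount that depended on Ezh1. The 16 start-site regions of core genes had a median score of 4.77 and the 18 others 9.62 in the authors' deposited table, and 1 of 16 against 9 of 18 scored 10 or more. Ezh1 gave 5 of those 9, and without Ezh1 the other 13 regions away from starts had a median of 5.47 in the authors' deposited table. These classes count a gene's own starts only, and 4 of the 18 lay within 1 kb of a start of Commd3 or H2-Ke6. By any protein-coding start, as for the list, the medians were 4.83 over 20 regions and 11.48 over 14 in the authors' deposited table, and without Ezh1 4.83 over 20 and 5.47 over 9. The list had medians of 5.00 at protein-coding starts and 8.73 elsewhere in the authors' deposited table. By distance from the nearest protein-coding start, the median score of all regions went from 4.89 within 250 bp to 12.26 beyond 100 kb in the authors' deposited table. Over the whole set of 34, the median was 5.17 against 6.64 for the list in the authors' deposited table.

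**Figure D3:**
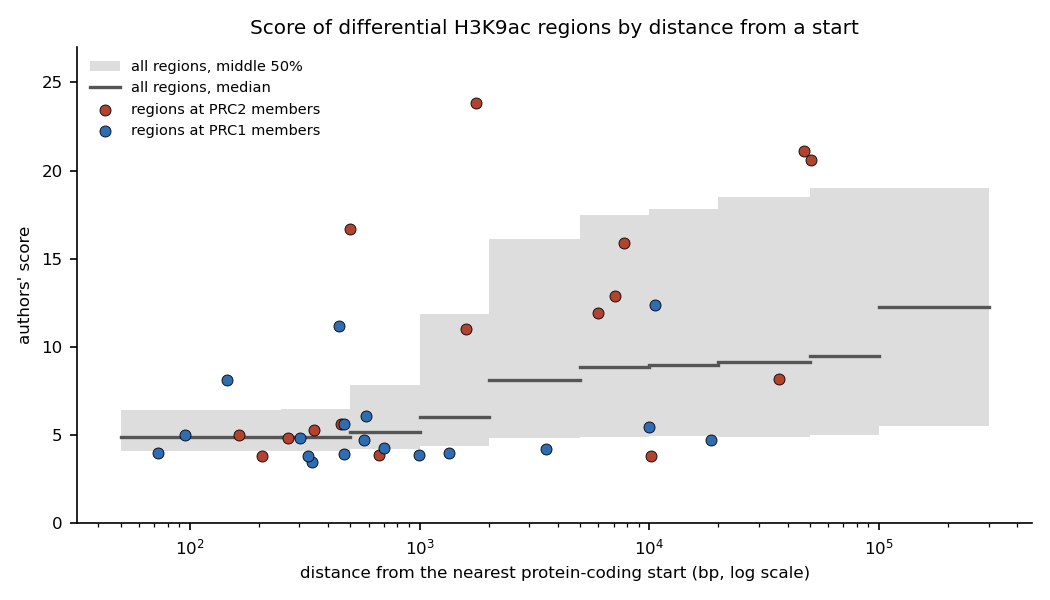
Authors' score of each region at a core gene against its distance from the nearest protein-coding start of any gene (log scale, first class drawn from 50 bp). Grey bands give the middle 50% of all 45855 regions in each distance class and dark lines their medians. Of the 20 core-gene points within 1000 bp, 10 lie inside the band of their class, 7 below it, from 3.48 to 4.01, and 3 above it: the Ezh2 intron region at 16.70, the Ring1-side region at 11.21 and the Ring1 start region at 8.12.

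Base composition followed position too. The start-site regions of core genes had a median of 65.7% G and C and 8.40 CpG sites per 100 bp, and the others 52.7% and 1.90. In the list, regions at any protein-coding start had medians of 54.7% and 2.98, and those elsewhere 48.9% and 1.02. At least 60% G and C was reached by 11 of 16 start-site regions and 3 of 18 others at core genes, and by 32.4% and 4.90% of the list. These core-gene classes count a gene's own starts only, so the comparison with the list is not like for like. By any protein-coding start, as for the list, 20 core-gene regions were at a start, and 11 of them reached 60%. Those that join, near starts of Commd3 or H2-Ke6, had 37.2 to 55.7% G and C. Of the 10 regions that scored 10 or more in the authors' deposited table, 2 reached 60% G and C. No core-gene region was soft-masked as repeat over 50% or more of its bases, which was so for 4.98% of the list at starts and 17.7% elsewhere. With 16 start-site regions a count of 0 is near the share at starts. The median soft-masked share was 8.4% at core-gene starts against 0.0% in the list, and 3.2% against 12.93% elsewhere.

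**Figure D4:**
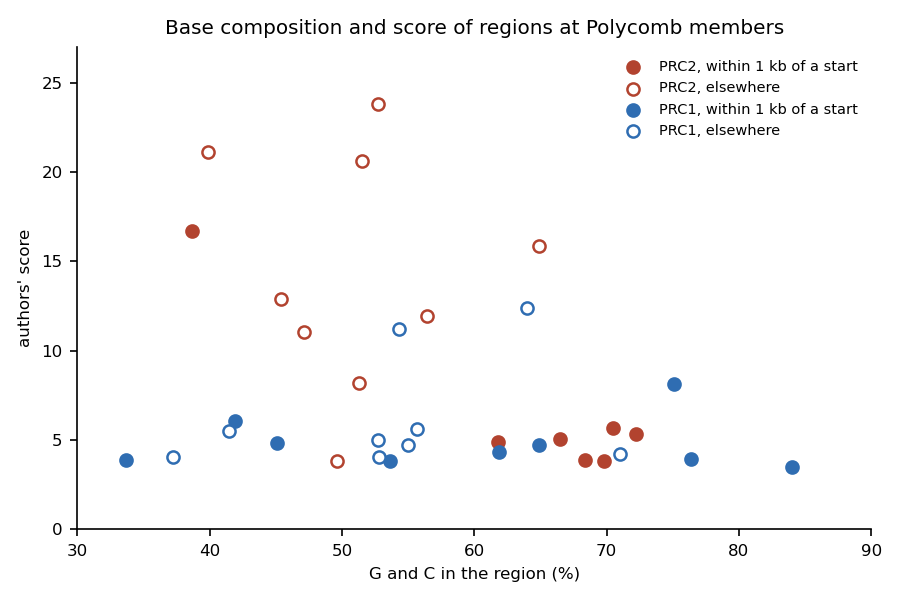
Share of G and C in each of the 34 regions (horizontal) against the authors' score (vertical), PRC2 in red and PRC1 in blue, filled where the region lies within 1 kb of a start of the gene. Of the 16 filled points 11 lie at the lower right, from 61.8 to 84.0% G and C, and the highest scores, from 20.62 to 23.82, are open points at 39.9 to 52.7% G and C.

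A short motif search found only the SP1/KLF box at more than 1 core gene. The SP1/KLF box GGGCGG, on either strand, was in 6 of 16 start-site regions (Ezh2, Suz12, Jarid2, Bmi1, Ring1 and Rnf2) and 1 of 18 others (Cbx8), against 22.4% of the list's start-site regions and 4.29% of those elsewhere. The core-gene classes count a gene's own starts, and those of the list any protein-coding start. By the list's rule the box was in 6 of 20 start-site regions, which is closer to the list's share. The 10-letter NRF1 consensus was in the Eed region alone, and in 0.173% of the list's start-site regions. The ETS word CCGGAAG, the E2F word TTTCGCGC, the CRE word TGACGTCA and an 11-letter YY1 word were in none of the 34, and in 4.06%, 0.150%, 0.353% and 0.308% of start-site regions. The SP1/KLF box overlaps CpG-rich sequence by its letters, and a match describes the sequence only.

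Some regions counted for a core gene belong as much to a neighbour. For 7 of the 34 the nearest protein-coding start was that of another gene: 3 near Ring1, 2 near Bmi1 and 2 in Jarid2. By the window rule itself, 12 of the 34 also counted for another protein-coding gene: all 5 of Bmi1, all 5 of Ring1 and the 2 Ezh1 regions inside Cntnap1. With only the 27 regions nearest to a start of the core gene counted, which keep the Cntnap1 pair for Ezh1, all 10 core genes had a region, Bmi1 had 3 and Ring1 and Jarid2 2 each, and 53.9% of protein-coding genes had such a region. At the edge of the window, the region at chr17:34029613-34029756 upstream of Ring1 reached from 4933 to 5076 bp from the gene, across the window edge, and was counted, but not when its midpoint or 50% of it had to lie inside. By contrast, one that scored 16.34 in the authors' deposited table, 5378 bp beyond Suz12, was not counted. The Bmi1-side region in Commd3 at 4.01 and the outermost Ring1-side region carry an exact score that 1021 regions share in the authors' deposited table.

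Other genes of the Polycomb system were read in the same way, against 60.7% of protein-coding genes with a region called at 70 µM in the window and 39.2% at a start. Among PRC2 accessory subunits 7 of 9 had one in the window (77.8%, exact Clopper-Pearson 95% interval 40.0 to 97.2%, which holds the share of all genes), with 11 at Phf1, which encodes a Tudor-domain reader of methylated histone H3, 7 at the histone chaperone gene Rbbp7 and 4 at its paralogue Rbbp4. Epop and Lcorl had none. Among other PRC1 subunits 28 of 30 had one (93.3%, interval 77.9 to 99.2%). There were 13 at Phc2, a polyhomeotic gene, 12 at Kdm2b, whose product binds unmethylated CpG islands, and 11 at Scmh1, while Cbx2 and Scml2 had none. The list of erasers of Polycomb marks also holds genes whose products remove no mark themselves, such as Foxk1, Mbd5 and Asxl3. In it 11 of 12 genes had one (91.7%, interval 61.5 to 99.8%), with 11 at Foxk1, 9 at the lysine 27 demethylase gene Kdm6b and 5 at Mbd5. Asxl3 had none. All 16 trithorax and COMPASS genes, whose products counter Polycomb, had one (interval 79.4 to 100%). The methyltransferase gene Kmt2d had 13, Arid1b 10 and the remodeller gene Smarca4 10. Regions called at 5 µM were also present in 5 of these genes, Pcgf1, Bcorl1, Mbd6, Kmt2d and Smarca4, where 1.75% of protein-coding genes had one. At starts the shares were 66.7% (interval 29.9 to 92.5%), 76.7% (57.7 to 90.1%), 91.7% (61.5 to 99.8%) and 75% (47.6 to 92.7%). Beside them stood 80.0% of core genes and 39.2% of all protein-coding genes. Except for the PRC2 accessory list, the intervals in the window and at starts lie above the shares of all genes. These lists overlap in function and were set beside those shares by count alone.

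Of 22 classical Polycomb target genes, 6 had a region called at 70 µM in the window (27.3%, exact Clopper-Pearson 95% interval 10.7 to 50.2%), where 60.7% of all protein-coding genes had one. At a start 2 had one (9.09%, interval 1.12 to 29.2%), where 39.2% of all had one. The homeobox genes Hoxa9 and Lhx2 had 4 and 1, and Bmp4 and the cell cycle inhibitor gene Cdkn1c had none. Their median window of 18 kb was shorter than that of the core genes, 48.2 kb, and genes with windows under 20 kb had a region in 42.2% of cases, a share inside the interval of the list. The part of window length in the count was not tested further.

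**Figure D5:**
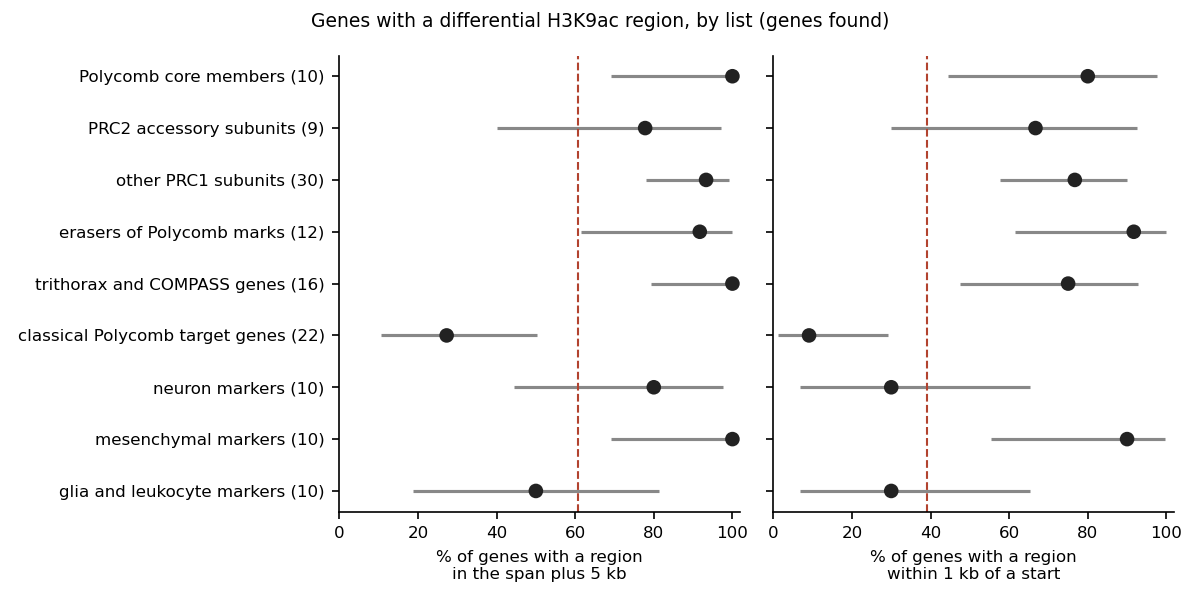
Percent of genes in each list with a region called at 70 µM in the span plus 5 kb (left) and within 1 kb of a start (right), with exact 95% binomial intervals that cover counting of genes only. Dashed lines give the shares of all protein-coding genes, 60.7% and 39.2%. The Polycomb core members stand at 100% and 80.0%, and the classical Polycomb targets at 27.3% and 9.09%.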

How the data were processed

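H3K9ac ChIP DNA and input DNA of HT22 cells were sequenced. Per the submitters' processing notes and the design text, base calling used CASAVA 1.8, reads were mapped to mm10 with Bowtie 1.0.0, and peaks and their differences between choline levels were called with MACS2 (callpeak against input, then bdgdiff). The score of each region is the authors' deposited value, in a column without a name. The scaling between libraries and their read depth are not given in the sources used here. Either could move the number of regions assigned to a level.

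Gene spans and starts came from GENCODE M21, which is of the same build, and sequence from GRCm38.p6. All region ends lay inside the chromosomes, and no region was shorter than 120 bp. Overlaps were computed in Python 3.11.15 with numpy 2.4.6, pandas 2.3.3 and pysam 0.24.0, and the counting was tested on simulated windows. A start is that of any annotated transcript of the gene. A protein-coding start is that of any transcript, coding or not, of a protein-coding gene. The principal transcript is the best-ranked by APPRIS in the annotation, and a region's place is that of its midpoint. The members, lists and summaries were chosen with earlier results of these data known. Named genes are all members and, per list, the 3 with the most regions and the first 2 without one, of which 1 gene is not reported here. Of the listed names, Ezhip was not found in the annotation. Alternatives tried were other flanks, overlap rules, start windows and score limits. With no replicate of a choline level, no p-value was computed.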

Additional observations from a re-analysis of the deposited data

How the results depend on the processing

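Shares of all protein-coding genes in this paragraph count regions at either level. All 10 core genes had a region with flanks of 2 or 10 kb (57.3% and 65.4% of all genes), with the midpoint or 50% of a region required inside the window (60.7% for each), without the 2 commonest scores (59.0%) and, in an alternative chosen after seeing the data, with only regions nearest to their own starts (53.9%). Without flanks Eed lost its only region and 9 genes and 21 regions were left (52.1% of all genes), and Ring1 fell from 5 regions to 1, Bmi1 from 5 to 2 and Suz12 from 3 to 1. Limited to the upper 50% of regions by score, 5 genes, 12 regions, 0.21 regions per 10 kb, a median score of 12.65 and 2 genes with start-site regions were left, where 43.9% of all genes had a region and 14.6% a start-site region. In the top 25% by score, 3 genes, 5 regions, 0.09 per 10 kb and a median of 20.62 were left, with a background of 27.3%. Fewer regions enter under these limits by construction. Of 90 counts per gene across the 9 window settings, 61 stayed within 1.5 times and 29 did not. Start windows of 500 and 2500 bp gave 8 and 9 genes, against 32.5% and 46.5% of all genes. Read depth is unknown, so no limit follows from it. No paired analysis was possible because the file has no value per library, and for the same reason no library could be left out.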

Other observations

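Markers of cell identity were read in the same list. Over all protein-coding genes 60.7% had a region called at 70 µM within the span plus 5 kb and 39.2% had one at a start. Of 10 neuron markers, 8 had one in the window (exact Clopper-Pearson 95% interval 44.4 to 97.5%) and 3 at a start (6.67 to 65.2%), and these intervals hold the shares of all genes. There were 13 regions at the splicing factor gene Rbfox3, 5 at the neuronal tubulin gene Tubb3 and 3 at Dlg4, which encodes a postsynaptic scaffold. The Rbfox3 window is 431.8 kb long and held 0.30 regions per 10 kb, against 0.34 over the summed windows of all protein-coding genes. Nefl and Slc17a7 had none. All 10 mesenchymal markers had one (69.2 to 100%) and 9 had one at a start (55.5 to 99.7%), and these intervals lie above the shares of all genes. The transcription factor genes Twist2 and Prrx1 had 8 regions each and the fibronectin gene Fn1 had 4. Of 10 glial and leukocyte markers, 5 had one (18.7 to 81.3%) and 3 at a start (6.67 to 65.2%), and these intervals hold the shares of all genes. Cx3cr1 had 9 regions, Mbp 8 and Aldh1l1 4 (0.32 per 10 kb), and Aqp4 and Cd68 had none. Median windows were 55.5 kb for neuron, 36.8 kb for mesenchymal and 27.5 kb for glial and leukocyte markers, against 27.4 kb for all protein-coding genes. These counts say where H3K9ac was called different, not which genes were active.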
